A study of Mus musculus with 11 samples.

Results

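Transcripts of the matrix metalloproteinases (Mmp), the membrane-anchored ADAM proteases (Adam), the secreted ADAMTS proteases (Adamts) and their tissue inhibitors (Timp) were examined in 11 whole E0771 tumors. E0771 is a mouse mammary carcinoma line from the C57BL/6 background. A gene was taken when its platform symbol began with Mmp, Adam, Adamts or Timp followed by a digit, and each symbol had 1 probe set. This gave 75 genes among 22206 probe sets, namely 21 Mmp, 32 Adam, 18 Adamts and 4 Timp genes. The tumors grew from 500000 cells injected into mammary fat pad 4 of adult female C57BL6J mice. Before injection the cells had received either a control shRNA of scrambled sequence (4 scram tumors) or 1 of the lentiviral hairpins against the pyruvate carboxylase gene Pcx, which gave 3 shPC25 and 4 shPC28 tumors. All groups, the controls included, had therefore been transduced and selected with puromycin, and all mice ate the same diet, which the sample titles abbreviate as LFD. The methods describe no repeat of the transduction, so tumors of a group repeat the mouse and not the engineered cells. RNA of carcinoma and host cells was mixed in each sample, and fewer cells of a type cannot be told apart from less RNA per cell.

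Metalloproteinases are zinc-dependent enzymes that are made as inactive precursors. Secreted Mmps cut collagens, gelatin, proteoglycans and other matrix proteins, membrane-type Mmps act at the cell surface, and Timps block them by binding the active site. Adams of the sheddase kind release growth factors and cytokine receptors from the plasma membrane, whereas many Adam genes are known mainly from sperm. Adamts enzymes process procollagens and cut the large proteoglycans versican and aggrecan. In mammary tumors most secreted Mmps are known as products of fibroblasts, macrophages and neutrophils as well as of carcinoma cells.

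The deposited values were log2 signals, and the array medians lay between 5.89 and 6.08. Correlations of arrays across probe sets ranged from 0.987 to 0.994. No label names a hybridization batch or scan date, so batches could not be examined. A reference level for dim probe sets was set at 4.30, the 95th percentile of the means of 1091 olfactory receptor probe sets, since those receptors are not thought to be expressed in a mammary tumor. The targeted gene Pcx lay below or near that level, at 3.41 to 4.48 in scram tumors and 2.32 to 3.76 in shPC tumors. Its difference was -0.80 (SE 0.27), with an exact two-sided permutation p of 0.0212 over the splits of the 11 tumors and an adjusted p of 0.388 by limma. A pair of tumors stood apart. On the main axis of variation scram replicate 4 lay with the shPC tumors, at 2.44 against -41.0 to -24.9 for the other scram tumors. The lymphocyte marker mean of shPC28 replicate 4 was 8.85, against 5.73 to 6.48 in the other 10 tumors. The mean of the 7 epithelial markers of the carcinoma ranged from 6.21 to 6.81 in scram, 5.10 to 6.29 in shPC25 and 5.08 to 7.12 in shPC28 tumors. Its members were uneven, since Krt8 differed by 0.05, Krt14 by -2.10 and Krt18 by 0.53, and Krt5 lay below the reference level.

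The principal comparison asked how protease and inhibitor transcripts differed between PC-depleted tumors, with equal weight for both hairpins, and scram tumors. Mmp9, Mmp3, Mmp10, Mmp2 and Timp3 were the members with the lowest differences, between -2.79 and -2.28 on the log2 scale. Adam10 (-0.06), Adam9 (-0.02) and Timp2 (-0.07) differed little, and with the arrays centred on their medians their differences were above 0. None of the 75 members passed the limma threshold of an adjusted p below 0.05, which 0.0135% of all probe sets passed (3 of 22206). At an unadjusted p below 0.05, 16 of 75 members were lower in shPC tumors, against 4.76% of all probe sets, and 0 of 75 were higher, against 4.34%. The lower members numbered 10 with median centring and 10 without scram replicate 1. The share of all probe sets is not given for these settings, so 4.76% is not their comparison. As deposited, the 16 comprised 8 of 21 Mmp, 2 of 32 Adam, 4 of 18 Adamts and 2 of 4 Timp genes. A difference of -1 or lower was found for 8 of 75 members, against 1.28% of probe sets, and a difference of 1 or higher for 0 of 75, against 0.288%. Every scram tumor exceeded every shPC tumor for Mmp2, Mmp3 and Mmp14, 3 of 75 members against 0.703% of probe sets, and the reverse held for 0 of 75, against 0.842%.

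Averaged over all their members, the families differed in size. The mean log2 signal of the Mmp genes was 7.21 ± 0.23 in the 4 scram tumors (mean ± SD), 6.63 ± 0.40 in the 3 shPC25 tumors and 6.58 ± 0.14 in the 4 shPC28 tumors. The Timp mean was 8.83 ± 0.33, 8.13 ± 0.05 and 8.08 ± 0.32 in the same order. For Adamts genes the means were 5.80 ± 0.12, 5.53 ± 0.27 and 5.52 ± 0.18. Adam genes averaged 5.04 ± 0.08, 5.01 ± 0.11 and 5.06 ± 0.09, which differed by less than the spread between tumors. Of the 32 Adam genes, 24 lay below the reference level, so the Adam mean and median were set mostly by dim probe sets. The median differences of members were -0.40 for Mmp, -0.36 for Timp, -0.09 for Adamts and 0.00 for Adam, beside 0.02 for all probe sets. In all, 42 of 75 members (56%) had a difference below 0, compared with 46.4% of probe sets. With the arrays centred on their medians the number was 32 (42.7%), and with quantile normalization 47 (62.7%). The median difference of all probe sets was then 0.11 and 0.02 respectively. The share of all probe sets below 0 is not given for these settings, so 46.4% is not their comparison.

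Both gelatinases, Mmp2 and Mmp9, which cut denatured collagen and basement membrane collagen, were lower in shPC tumors. Mmp2, typically a fibroblast product, gave signals of 10.61, 10.89, 8.69 and 8.45 in scram replicates 1 to 4, 6.71, 8.43 and 6.88 in shPC25 replicates 1 to 3, and 7.87, 6.67, 6.87 and 7.31 in shPC28 replicates 1 to 4. The groups did not overlap, but only 0.02 separated the lowest scram tumor from the highest shPC tumor, and scram replicates 1 and 2 stood well above replicates 3 and 4. The difference was -2.40 (SE 0.52), a 5.28-fold lower signal (adjusted p = 0.173 by limma). Mmp9, carried by neutrophil granules and also made by macrophages, was at 12.52, 11.90, 13.45 and 14.16 in scram tumors, 9.05, 11.67 and 12.02 in shPC25 tumors and 8.07, 9.84, 10.20 and 9.96 in shPC28 tumors. Here scram replicates 3 and 4 were the high ones, and shPC25 replicate 3 (12.02) lay just above scram replicate 2 (11.90). The Mmp9 difference was -2.79 (SE 0.63, adjusted p = 0.188 by limma). Mmp14, the membrane-type enzyme that activates proMmp2 together with Timp2, was at 14.98, 15.02, 15.08 and 15.05 in scram, 14.37, 14.75 and 14.83 in shPC25, and 14.37, 14.63, 14.50 and 14.60 in shPC28 tumors. Its scram values lay close together, and all 7 shPC tumors lay below them. The Mmp14 difference was small, at -0.44 (SE 0.12, 95% interval -0.71 to -0.18), and did not pass (adjusted p = 0.263 by limma).

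**Figure D1:**
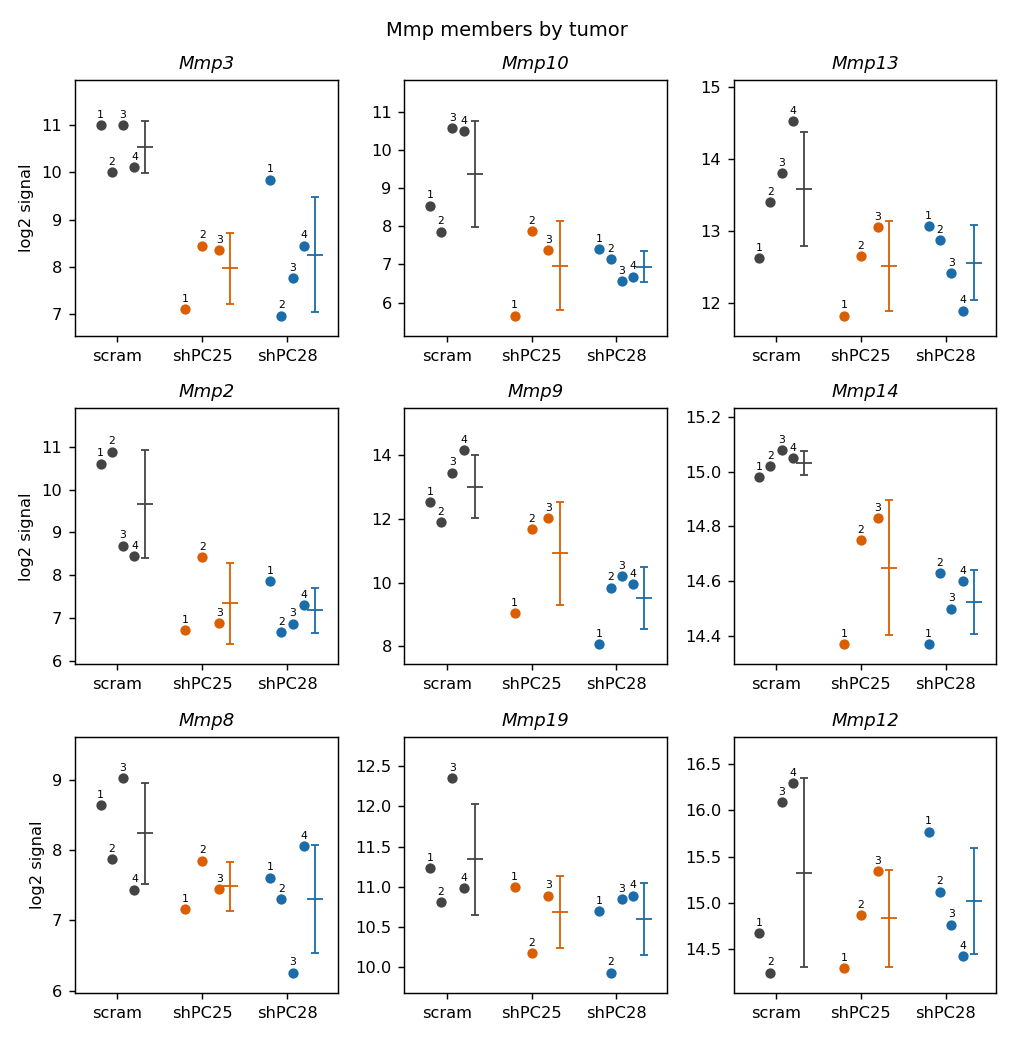
Log2 signal (y axis) of 9 Mmp genes in scram, shPC25 and shPC28 tumors (x axis). Points are tumors numbered by replicate, and the dash with whiskers is the group mean ± SD. All 7 shPC tumors lie below the scram tumors for Mmp3, Mmp2 and Mmp14, while Mmp12 overlaps throughout.

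The stromelysins Mmp3 and Mmp10, which cut proteoglycans and fibronectin and can activate procollagenases, showed differences of nearly the same size. Mmp3 was at 11.00, 10.01, 11.01 and 10.11 in scram tumors, 7.11, 8.45 and 8.35 in shPC25 tumors, and 9.85, 6.97, 7.76 and 8.45 in shPC28 tumors. Without overlap, the nearest shPC tumor was shPC28 replicate 1, which lay 0.16 below the lowest scram tumor. The Mmp3 difference was -2.42 (SE 0.49, adjusted p = 0.143 by limma). Mmp10 was at 8.54, 7.86, 10.57 and 10.50 in scram tumors, 5.66, 7.87 and 7.38 in shPC25 tumors, and 7.41, 7.13, 6.56 and 6.68 in shPC28 tumors. Its groups overlapped only in that shPC25 replicate 2 (7.87) lay just above scram replicate 2 (7.86). The Mmp10 difference was -2.41 (SE 0.56, adjusted p = 0.202 by limma). Mmp11, grouped with the stromelysins but a weak protease of matrix proteins, was near the reference level at 3.80 to 5.94 and differed by 0.02.

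Collagenases open the triple helix of fibrillar collagen. Mmp13, the main interstitial collagenase of the mouse, was at 12.62, 13.40, 13.80 and 14.52 in scram tumors, 11.82, 12.65 and 13.05 in shPC25 tumors, and 13.06, 12.87, 12.41 and 11.89 in shPC28 tumors. The groups overlapped through scram replicate 1, and 3 of 7 shPC tumors lay below every scram tumor. Its difference was -1.05 (SE 0.36, adjusted p = 0.396 by limma). Mmp8, the neutrophil collagenase, was at 8.64, 7.87, 9.02 and 7.44 in scram, 7.16, 7.85 and 7.45 in shPC25, and 7.61, 7.30, 6.26 and 8.06 in shPC28 tumors, with overlap and a difference of -0.85 (SE 0.36, adjusted p = 0.528 by limma). Mmp1a and Mmp1b, rodent relatives of human interstitial collagenase, did not share this direction. Their ranges were 3.76 to 6.80 and 3.33 to 5.99 over all tumors, with differences of 0.13 (SE 0.56) and 0.59 (SE 0.42), and scram replicate 2 was the lowest tumor for both. These genes are close relatives, and cross-hybridization between their probes was not tested.

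Mmp13, Mmp12, Mmp1b, Mmp3, Mmp1a, Mmp10, Mmp8, Mmp27, Mmp20 and Mmp7 follow each other in this order on chromosome 9 in the RefSeq annotation of GRCm38.p6, with no other protein-coding gene between them. Of these 10 genes Mmp27 was not analysed here, and 7 of the other 9 were at or above the reference level. Differences within the cluster were uneven. Mmp3 (-2.42) and Mmp10 (-2.41) lay on either side of Mmp1a (0.13), and Mmp20 (0.12) and Mmp7 (0.03) were below the reference level. The AP-1 site bound by Fos and Jun proteins is a textbook element of Mmp promoters, so its letters TGANTCA, which read the same on both strands, were searched from 250 bases before to 50 bases after each start in the RefSeq promoters. They occurred in 8 of the 9 measured cluster genes, all but Mmp8, and in 0 of 7 other Mmp genes with a promoter, beside 8.97% of 27025 genes. Mmp2, Mmp9, Mmp16, Mmp17 and Mmp19 had no promoter among these and were not searched. A match describes the letters only, and its bearing on the differences was not tested. Genes with a match include Mmp3 and Mmp10 as well as Mmp1a and Mmp1b. The 95% intervals of Mmp1a (-1.09 to 1.35) and Mmp1b (-0.32 to 1.51) include 0. The 100 bases before the start are shown for Mmp3, Mmp10, Mmp1a, Mmp1b, Mmp13 and Mmp8, to set neighbours side by side. They are given 5′ to 3′ with the AP-1 letters in capitals.
Mmp13 (chr9:7272414-7272513, plus strand): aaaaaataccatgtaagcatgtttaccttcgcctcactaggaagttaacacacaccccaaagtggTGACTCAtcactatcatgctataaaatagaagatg
Mmp1b (chr9:7388027-7388126, minus strand): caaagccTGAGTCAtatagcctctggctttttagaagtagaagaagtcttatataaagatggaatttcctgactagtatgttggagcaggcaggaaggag
Mmp3 (chr9:7445722-7445821, plus strand): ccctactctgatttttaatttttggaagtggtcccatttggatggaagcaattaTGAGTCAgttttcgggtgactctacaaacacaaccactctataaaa
Mmp1a (chr9:7464041-7464140, plus strand): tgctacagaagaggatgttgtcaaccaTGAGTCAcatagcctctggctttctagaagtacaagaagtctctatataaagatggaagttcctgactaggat
Mmp10 (chr9:7502242-7502341, plus strand): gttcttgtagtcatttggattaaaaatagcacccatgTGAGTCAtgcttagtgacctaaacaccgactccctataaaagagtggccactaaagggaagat
Mmp8 (chr9:7558329-7558428, plus strand): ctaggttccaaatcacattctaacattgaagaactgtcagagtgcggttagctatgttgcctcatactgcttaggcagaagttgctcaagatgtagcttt
The AP-1 letters began 35 bases before the start in Mmp13, 46 in Mmp3, 63 in Mmp10, 73 in Mmp1a and 93 in Mmp1b. The TATA box letters TATAAA, on either strand and anywhere in the same window, were found in 10 of 16 Mmp genes with a promoter, beside 15.7% of genes. These matches also describe letters only, and the one of Mmp8 began 3 bases before the start. Over all 75 members 45 had a RefSeq promoter. Of these the AP-1 letters were in 5 of 16 Adam genes (Adam1b, Adam19, Adam20, Adam25 and Adam29), 0 of 9 Adamts genes and 0 of 4 Timp genes.

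**Figure D2:**
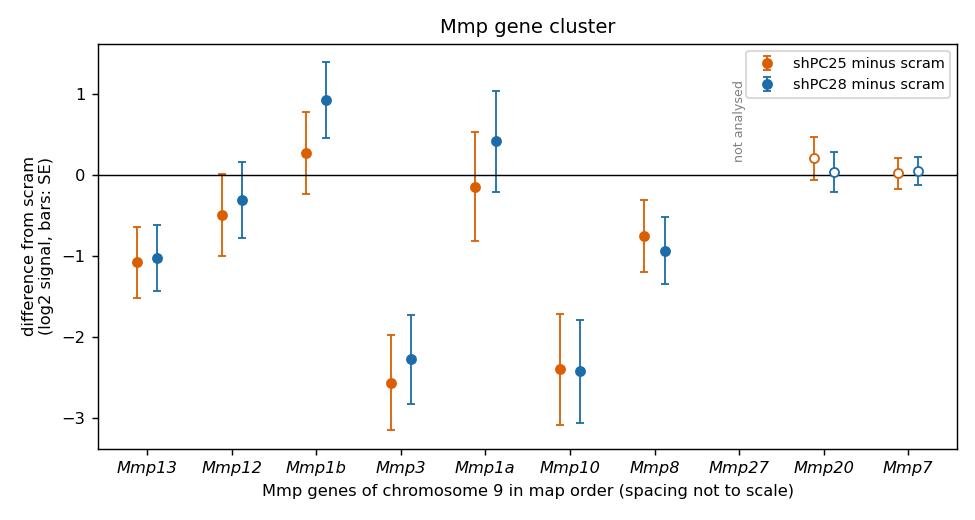
Difference from scram in log2 signal (y axis, bars are SE of the limma fit) for the Mmp genes of chromosome 9 in map order (x axis, not to scale), for shPC25 and shPC28. Open symbols are genes below the reference level, and Mmp27 was not analysed. Mmp3 (-2.56 and -2.28) and Mmp10 (-2.40 and -2.42) lie on either side of Mmp1a (-0.15 and 0.41).

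Of the other Mmp genes, Mmp12, the macrophage elastase, was at 14.67, 14.24, 16.09 and 16.30 in scram, 14.29, 14.86 and 15.34 in shPC25, and 15.77, 15.12, 14.76 and 14.42 in shPC28 tumors. All shPC values lay inside the scram range, and the difference was -0.40 (SE 0.42, adjusted p = 0.83 by limma). Leaving out scram replicate 4 gave -0.08, and leaving out scram replicate 2 gave -0.76. Mmp19, found in vessels and myeloid cells, was at 11.23, 10.81, 12.35 and 10.98 in scram, 10.99, 10.17 and 10.89 in shPC25, and 10.70, 9.93, 10.85 and 10.89 in shPC28 tumors. Scram replicate 3 stood above the rest, and the difference of -0.70 (adjusted p = 0.535 by limma) was -0.37 without it. Mmp23 ranged from 4.37 to 5.74 in scram and from 3.79 to 5.29 in shPC tumors, with a difference of -0.74 for shPC25 and -0.22 for shPC28, and its difference for both, -0.48, was -0.21 without scram replicate 1. Mmp25, a membrane-type enzyme of leukocytes, differed by -0.48 (SE 0.37). Mmp7, Mmp16, Mmp17, Mmp20, Mmp21, Mmp24 and Mmp28 were below the reference level, with differences from -0.20 to 0.54.

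The 4 inhibitors did not share a pattern. Timp3, which binds to the matrix and also inhibits Adam17 and several Adamts enzymes, was at 7.32, 5.88, 7.09 and 6.52 in scram tumors, 4.07, 4.58 and 4.14 in shPC25 tumors, and 6.13, 3.43, 4.39 and 4.35 in shPC28 tumors. All shPC25 tumors and 3 of the shPC28 tumors lay below every scram tumor, while shPC28 replicate 1 lay among them. The difference was -2.28 (SE 0.44, adjusted p = 0.115 by limma). Without shPC28 replicate 1 it was -2.54 and passed the threshold (adjusted p = 0.0449), and no other member passed in any alternative fit of this comparison. Most shPC values of Timp3 lay near the reference level of 4.30, so no fold is given for it and its differences may be smaller than the change in transcript level. Timp1, an inducible inhibitor, was at 12.72, 11.11, 12.22 and 11.26 in scram, 11.08, 11.02 and 11.39 in shPC25, and 11.43, 11.07, 11.08 and 11.14 in shPC28 tumors. Only scram replicates 1 and 3 were high, and the other 9 tumors lay between 11.02 and 11.43. Its difference of -0.66 (SE 0.28, adjusted p = 0.518 by limma) was -0.36 without scram replicate 1. Timp2, at 13.76 to 13.97 in scram and 13.36 to 14.30 in shPC tumors, differed by -0.07 (95% interval -0.49 to 0.36). Timp4 was at 2.42 to 3.59, below the reference level in every tumor, and differed by 0.11.

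**Figure D3:**
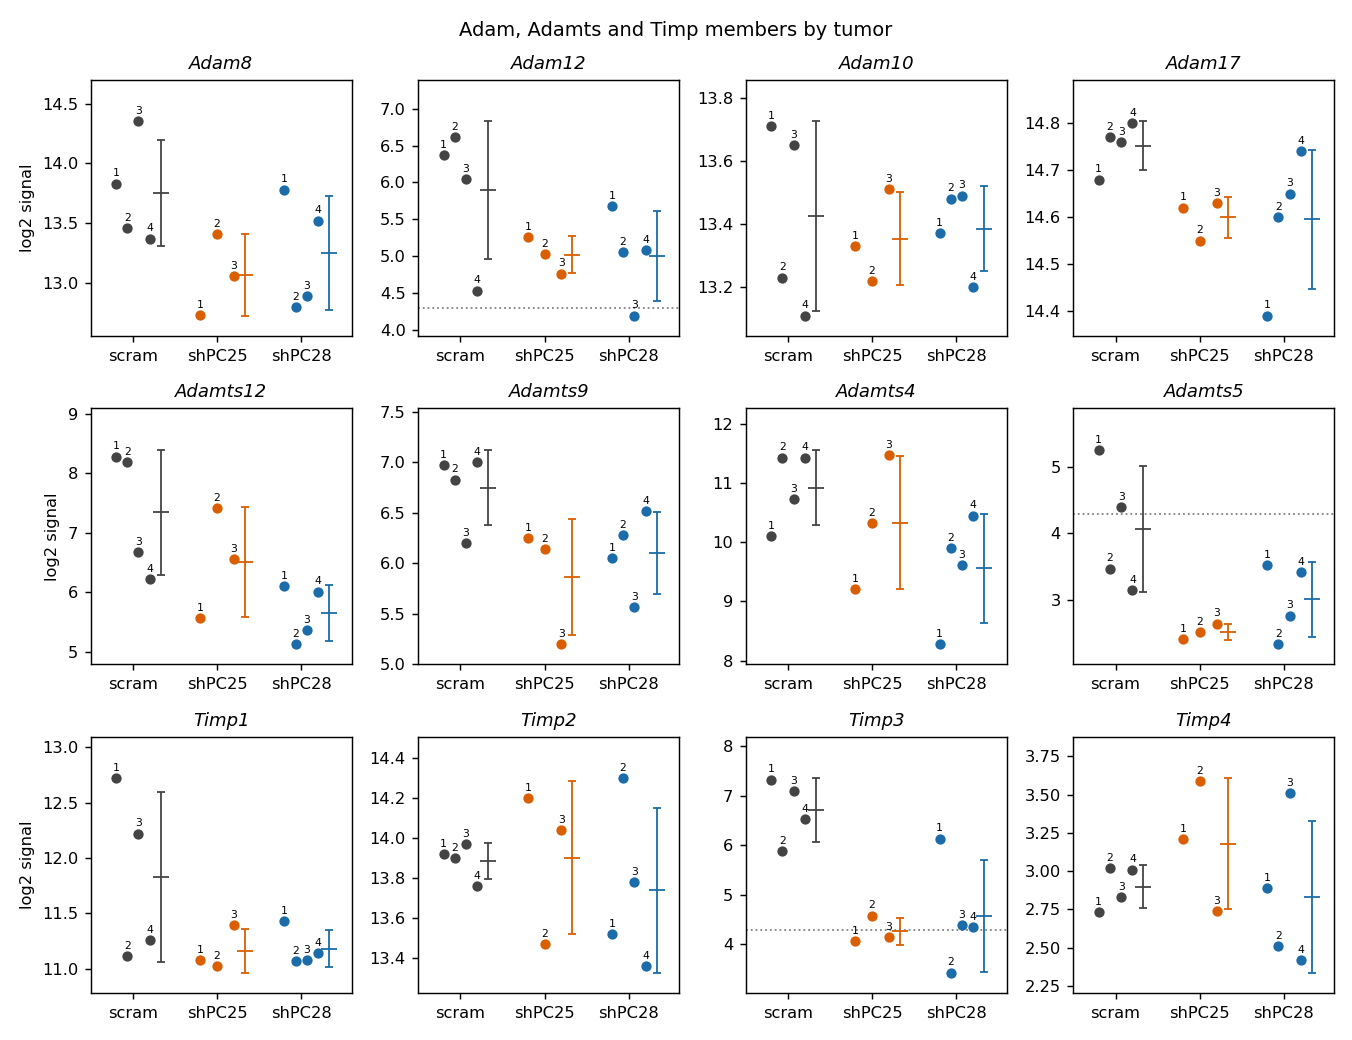
Log2 signal (y axis, scale set per gene) of 4 Adam, 4 Adamts and 4 Timp genes in scram, shPC25 and shPC28 tumors (x axis). Points are tumors numbered by replicate, the dash with whiskers is the group mean ± SD, and the dotted line is the reference level of 4.30. Timp3 lies between 5.88 and 7.32 in scram and at or below 4.58 in 6 of 7 shPC tumors, whereas Adam10 and Timp2 overlap.

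The sheddases Adam10 and Adam17, which release Notch ligands, growth factors and Tnf, differed little. Adam10 was at 13.71, 13.23, 13.65 and 13.11 in scram, 13.33, 13.22 and 13.51 in shPC25, and 13.37, 13.48, 13.49 and 13.20 in shPC28 tumors, with all shPC values inside the scram range. The Adam10 difference was -0.06 with a 95% interval of -0.38 to 0.27. Adam17 was at 14.68, 14.77, 14.76 and 14.80 in scram, 14.62, 14.55 and 14.63 in shPC25, and 14.39, 14.60, 14.65 and 14.74 in shPC28 tumors. In 6 of 7 shPC tumors it lay below every scram tumor, yet the difference was only -0.16 (95% interval -0.39 to 0.08, adjusted p = 0.730 by limma). Adam9, another widely expressed sheddase, ranged from 13.50 to 14.19 and differed by -0.02.

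Adam8 and Adam12 were the Adam genes lower at an unadjusted p below 0.05. Adam8, a myeloid and tumor cell protease, was at 13.83, 13.46, 14.35 and 13.37 in scram, 12.73, 13.41 and 13.06 in shPC25, and 13.78, 12.80, 12.89 and 13.52 in shPC28 tumors. The groups overlapped, and the difference was -0.60 (SE 0.25, adjusted p = 0.514 by limma), or -0.40 without scram replicate 3. Adam12, known from activated fibroblasts, was at 6.37, 6.62, 6.04 and 4.53 in scram, 5.26, 5.03 and 4.76 in shPC25, and 5.68, 5.05, 4.19 and 5.08 in shPC28 tumors. Scram replicate 4 was lower than 6 of the 7 shPC tumors, and the difference of -0.88 (adjusted p = 0.529 by limma) was -1.33 without it. Adam19, a sheddase of neuregulins, ranged from 8.19 to 10.54 and differed by 0.30 (SE 0.37). Adam3, known from mouse sperm, gave signals of 8.59 to 10.86 and differed by -0.16, and Adam4, also a testis gene, ranged from 2.81 to 5.60 and differed by -0.45 (SE 0.47), with -0.73 without scram replicate 2 and -0.18 without scram replicate 4. The other 24 Adam genes, most of them known from the male reproductive tract, were below the reference level and differed by -0.13 to 0.57. They include near-identical genes such as Adam6a and Adam6b, whose cross-hybridization was not tested.

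Of the Adamts genes at or above the reference level, Adamts12 and Adamts9 were lower at an unadjusted p below 0.05. Adamts12, which cuts cartilage oligomeric matrix protein, was at 8.28, 8.19, 6.67 and 6.22 in scram, 5.56, 7.41 and 6.56 in shPC25, and 6.10, 5.13, 5.37 and 6.01 in shPC28 tumors. As for Mmp2, scram replicates 1 and 2 were the highest of all tumors, and the shPC28 tumors lay below every scram tumor while the shPC25 tumors did not. Its difference was -1.26 (SE 0.46, adjusted p = 0.431 by limma). Adamts9, a versican-cutting enzyme, was at 6.97, 6.83, 6.20 and 7.0 in scram, 6.25, 6.14 and 5.20 in shPC25, and 6.05, 6.28, 5.57 and 6.52 in shPC28 tumors, with a difference of -0.77 (SE 0.25, adjusted p = 0.373 by limma). Adamts4, an aggrecanase, was at 10.11, 11.43, 10.73 and 11.43 in scram, 9.21, 10.32 and 11.47 in shPC25, and 8.28, 9.90, 9.62 and 10.45 in shPC28 tumors. It overlapped widely, since shPC25 replicate 3 was the highest tumor of all, and differed by -0.98 (SE 0.48, adjusted p = 0.587 by limma).

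The remaining Adamts genes showed both signs. Adamts1, an aggrecanase and antiangiogenic protease, ranged from 8.58 to 9.77 and differed by -0.10. The procollagen processing enzyme Adamts14 ranged from 8.61 to 10.26 and differed by 0.25, and leaving out scram replicate 3 or 4 gave 0.00 or 0.55. Adamts7, a relative of Adamts12 with the same substrate, ranged from 7.21 to 9.83 and differed by 0.58 (SE 0.42). Scram replicate 2 was the lowest tumor for Adamts7, and its difference was 0.12 without that tumor. Adamts5, the main aggrecanase of mouse cartilage, lies outside the naming rule because its mean was below the reference level, and was chosen after its values were seen. Its signals were 5.26, 3.47, 4.40 and 3.15 in scram, 2.40, 2.51 and 2.64 in shPC25, and 3.52, 2.33, 2.76 and 3.42 in shPC28 tumors. Only scram replicates 1 and 3 exceeded the reference level, and the difference was -1.31 (SE 0.37, adjusted p = 0.287 by limma). The 9 Adamts genes below that level, Adamts5 and Adamts20 (-0.60) among them, differed by -1.31 to 0.17.

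The hairpins were then compared with scram separately. The comparisons share the same scram tumors, so their values are given side by side. In shPC25 tumors 11 of 75 members were lower at an unadjusted p below 0.05, against 4.16% of probe sets, and 1 (Mmp16, below the reference level) was higher, against 4.29%. In shPC28 tumors 12 of 75 were lower, against 3.72%, and 0 were higher, against 3.69%. None passed after adjustment in either comparison, where 0% of probe sets passed. For shPC25 and shPC28 respectively, the differences were -2.32 and -2.48 for Mmp2, -2.56 and -2.28 for Mmp3, -2.40 and -2.42 for Mmp10, and -2.44 and -2.13 for Timp3. Mmp9 differed by -2.09 and -3.49, Adamts12 by -0.83 and -1.69, and Adamts4 by -0.59 and -1.36. Groups did not overlap for 7 members lower in shPC25 tumors (Adam17, Adamts5, Adamts20, Mmp2, Mmp3, Mmp14 and Timp3), against 3.4% of probe sets, and for 0 higher members, against 4.16%. In shPC28 tumors this held for 6 lower members (Adamts12, Mmp2, Mmp3, Mmp9, Mmp10 and Mmp14), against 2.12%, and for 1 higher member (Adam26a, below the reference level), against 2.41%.

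**Figure D4:**
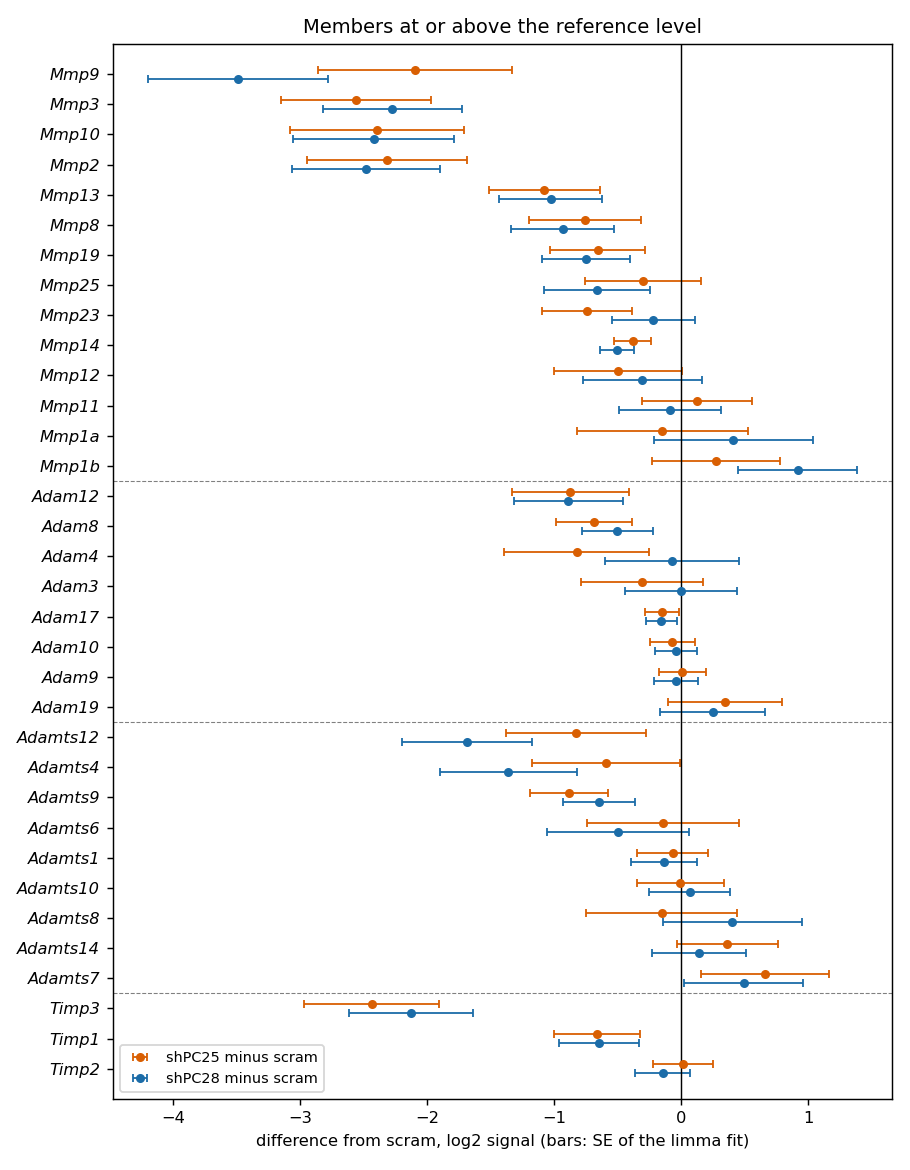
Difference from scram in log2 signal (x axis, bars are SE of the limma fit) for the 34 members at or above the reference level (y axis, dashed lines part the families), for shPC25 and shPC28. Mmp9, Mmp3, Mmp10, Mmp2 and Timp3 lie at -2.09 or lower for both hairpins, and Adam10, Adam9 and Timp2 lie near 0.

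Tested directly against each other, shPC28 and shPC25 tumors differed past the limma threshold for 0 of 75 members and 0% of probe sets. At an unadjusted p below 0.05, 1 member (Mmp16) was lower in shPC28 tumors, against 2.46%, and 0 were higher, against 2.14%. The widest gap between the hairpins was that of Mmp9, at -1.40 with a 95% interval of -3.07 to 0.28 (adjusted p = 0.993 by limma). For Mmp2 the interval of the difference was -1.54 to 1.22, and for Mmp3 it was -1.004 to 1.58. These intervals are too wide to show that the hairpins act alike.

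Markers of host cells differed along with the proteases, and their part in the results was not tested. The mean of the 9 measured fibroblast markers was 11.62, 11.54, 10.28 and 9.62 in scram replicates 1 to 4, 8.30 to 9.73 in shPC25 and 7.90 to 9.80 in shPC28 tumors. At an unadjusted p below 0.05, 7 of these 9 were lower and 0 higher, against 4.76% and 4.34% of all probe sets. Their median difference was -2.06. The exceptions were Fap (-0.495), which was below the reference level, and Pdgfrb (-0.02). Pdgfrb differed by 0.44 for shPC25 and -0.48 for shPC28. Scram replicates 1 and 2, the high tumors for fibroblast markers, were also the high ones for Mmp2 and Adamts12. Neutrophil markers averaged 8.37, 7.17, 7.77 and 6.07 in scram, 5.54 to 6.82 in shPC25 and 5.89 to 6.57 in shPC28 tumors. In this list 5 of 10 were lower at that unadjusted level, and the median difference was -1.37. The granule genes Mpo, Elane, Ltf and Camp were below the reference level. Scram replicate 4 had the lowest neutrophil marker mean of the scram tumors and the highest Mmp9 signal, at 14.16. The source of Mmp9 was not tested. Macrophage markers averaged 12.43 to 12.84 in scram, 11.44 to 11.71 in shPC25 and 12.02 to 12.36 in shPC28 tumors, without overlap with scram. At the same unadjusted level 8 of 9 were lower, with a median of -0.65. The median was -0.94 for shPC25 and -0.35 for shPC28. For shPC28 alone, only Cd14 (-1.43) was lower at that level. C1qc differed by -1.18 for shPC25 and -0.255 for shPC28. Endothelial markers (median 0.23, 0 of 6 lower), pericyte and smooth muscle markers (-0.37, 0 of 6), lymphocyte markers (0.21, 0 of 5) and mammary epithelial markers (-0.19, 0 of 7) had no member past that unadjusted level in either direction. Among 6 skeletal muscle markers, median -0.42, only Acta1 was lower at that level (-1.37).

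**Figure D5:**
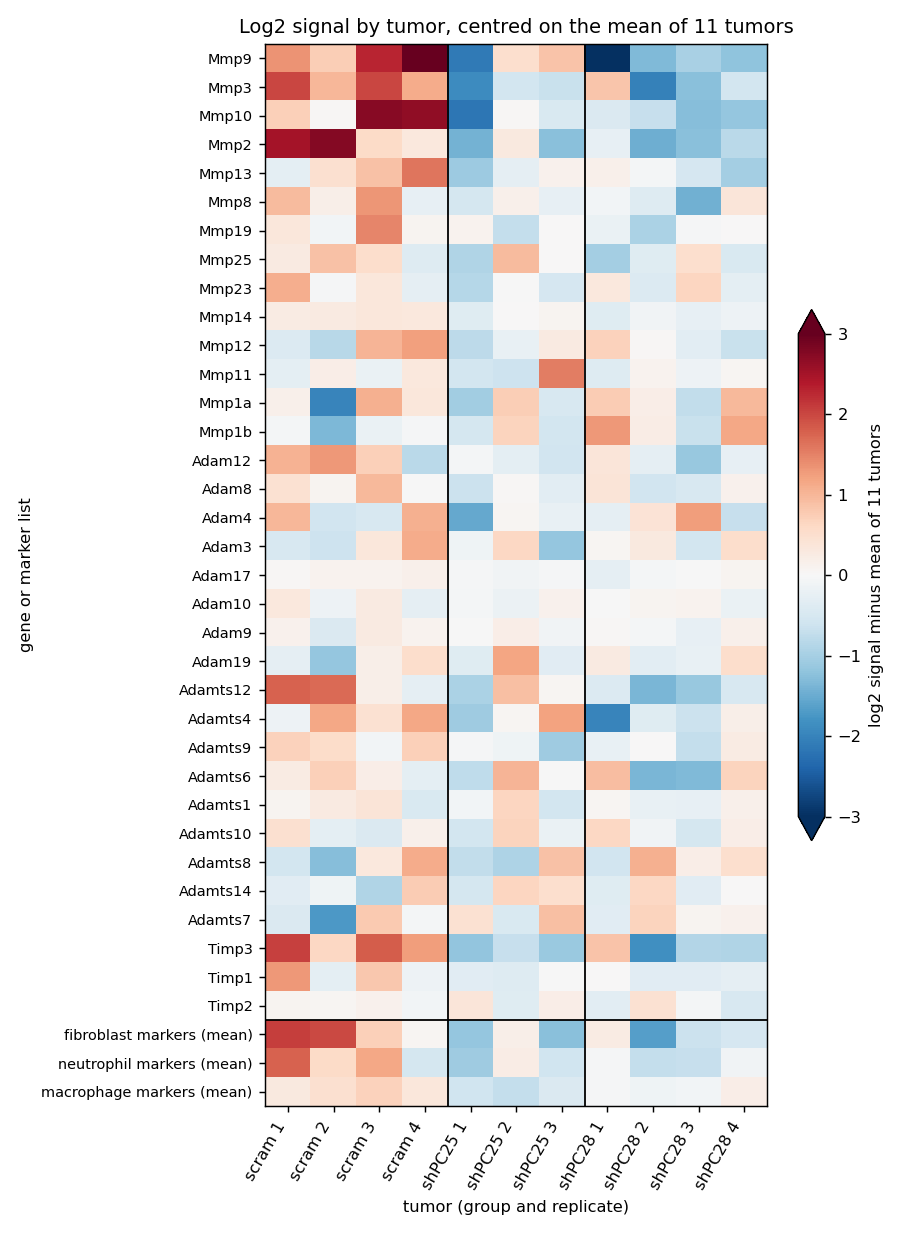
Log2 signal of the 34 members at or above the reference level and the means of 3 marker lists (rows) in each tumor (columns), after subtracting the mean of the 11 tumors from each row. Colors are capped at 3 and -3. Scram replicates 1 and 2 are high for Mmp2, Adamts12 and fibroblast markers, and replicates 3 and 4 for Mmp9, Mmp10 and Mmp12.

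Within the scram group the members thus did not share an order of tumors. Mmp2 and Adamts12 were high in replicates 1 and 2, Mmp9, Mmp10, Mmp12 and Mmp13 in replicates 3 and 4, and Timp1, Timp3, Adam8 and Mmp8 in replicates 1 and 3. Both tumors that stood apart were left out in turn. Without scram replicate 4 the difference was -2.80 for Mmp2, -2.56 for Mmp3, -2.41 for Mmp9, -2.03 for Mmp10, -0.74 for Mmp13 and -2.34 for Timp3. Without shPC28 replicate 4 it was -2.42 for Mmp2, -2.45 for Mmp3, -2.87 for Mmp9, -2.37 for Mmp10, -0.94 for Mmp13 and -2.25 for Timp3.

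Genes that act with the proteases were described by 4 further lists, none of which had a member past the adjusted threshold. Their counts at an unadjusted p below 0.05 stand against 4.76% of all probe sets for lower and 4.34% for higher. Of 22 regulators of protease activity, 3 were lower at an unadjusted p below 0.05, namely the serine protease inhibitor Tfpi2 (-1.34), the proprotein convertase Pcsk5 (-1.39) and Reck (-0.58), a membrane inhibitor of Mmps. Reck was below the reference level by its mean, and so were the shPC25 and shPC28 means of Tfpi2 (3.70 and 4.29), so both values are uncertain. Only Rhbdf1 was higher (0.58), and the median difference was -0.18. Of 20 substrates of sheddases 3 were lower and 3 higher, with a median of 0.01. The membrane chemokine Cxcl16 differed by -0.90, the growth factor Nrg1 by -0.77 and the receptor Notch1 by 0.77, which was 1.20 for shPC25 and 0.34 for shPC28. Of 13 matrix substrates 5 were lower and 0 higher, with a median of -0.40, led by Bgn, a small proteoglycan (-1.87), and the collagen chains Col3a1 (-2.20) and Col1a2 (-2.38). The collagen chains are also members of the fibroblast marker list. Of 15 transcription factors of the AP-1, Ets and related families 3 were lower, Ets2 (-0.97), Cebpb (-0.81) and Junb (-0.40). The 2 higher ones were Etv4 (0.79) and Etv5 (0.46), and the median was -0.11. Of these, Junb alone is a Fos or Jun gene. Fosl2 (-0.32), Fos (-0.18), Jun (-0.01), Jund (0.06), Fosl1 (0.10) and Fosb (0.30) were not past that unadjusted level.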

How the data were processed

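Total RNA of 11 E0771 tumors was labelled with a whole transcript kit and hybridized to mouse Clariom S arrays, which the authors analysed in Transcriptome Analysis Console. The deposited log2 signals were taken to be normalized between arrays, as the labels and values imply. How probes were summarized, corrected for background and filtered is not given in the sources used. Precision depends on the number of arrays. Of 22206 probe sets, 19572 had 1 gene symbol and 2634 had none. The deposited log2 values entered limma 3.58.1 (R 4.3.3, lmFit and eBayes) unfiltered, with 1 mean per group and 4 contrasts, two-sided tests and Benjamini-Hochberg adjustment over all probe sets at a threshold of 0.05. Intervals are 95% intervals of that fit, which was tested on simulated data. Whether tumors of a group were grown or hybridized together is not stated. Named were all Timp genes and, of the other families' members at or above the reference level, those of smallest p, highest mean, smallest p between hairpins or a set role (Mmp2, Mmp9, Mmp14, Adam10, Adam17). Up to 3 genes of smallest p were named per list, and some further list genes were named outside that rule. Members, lists and rules were chosen with earlier results of these data known. Some genes of the 12 lists are not reported here. Promoters came from RefSeq (GRCm38.p6), and 45 of 75 members matched by symbol. The fits were repeated after quantile normalization or centring on array medians, without dim probe sets, with array weights, with a trended and robust prior, with the replicate number as a block, with the compared groups alone, and without each tumor. The family means were also taken over members at or above the reference level. A repeat over all probe sets of a symbol could change nothing, since each member symbol had 1.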

Additional observations from a re-analysis of the deposited data

Results flagged for a closer look

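Mmp9 in shPC28 replicate 1 stood below the other shPC28 tumors, at 8.07 against 9.84 to 10.20. The gap made up 0.831 of the range of the group, just past the critical value of Dixon's test for 4 samples. In all, 64 groups of 4 tumors were examined this way for the named members and the family means, and chance alone marks about 1 in 20. Without this tumor the Mmp9 difference of both shPC groups from scram was -2.55 (adjusted p = 0.194 by limma).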

How the results depend on the processing

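Of 28 named members, 20 kept their direction and stayed short of the limma threshold under every alternative, 7 changed sign under at least 1, and Timp3 passed in 1. With median centring the differences of Adam10, Adam9 and Timp2 were 0.039, 0.0777 and 0.029, and centring moved the median of all probe sets by 0.0948. With 1 tumor left out, the difference ran from -0.1608 to 0.0392 for Adam10, -0.03 to 0.5333 for Adam19, -0.39 to 0.1833 for Adam3, -0.1654 to 0.0646 for Adam9, -0.2788 to 0.0362 for Adamts1, -0.1592 to 0.0425 for Timp2 and -0.0042 to 0.2188 for Timp4. The count of probe sets past the threshold in the comparison of both shPC groups, 3 as reported, was 8 with array weights, 0 with quantile normalization, 22 with a trended and robust prior and 0 to 8 with 1 tumor left out. For shPC25 the count was 0 as reported, 1 with array weights or with dim probe sets left out, 2 with the trended and robust prior and 0 to 6 with 1 tumor left out. For shPC28 it was 0, 9 with that prior and 0 to 1 with 1 tumor left out. Members past the threshold numbered 0 throughout, save 0 to 1 with 1 tumor left out in the comparison of both groups, the 1 being Timp3 without shPC28 replicate 1. The 16 members lower at an unadjusted p below 0.05, a count whose repeats were chosen after seeing the data, were 10 with median centring and 10 to 15 with 1 tumor left out, 10 without scram replicate 1. The Mmp mean difference of -0.60 was -0.9781 over members at or above the reference level and -0.6982 to -0.4888 with 1 tumor left out. The Adam mean, -0.01 as reported, was 0.0873 with median centring, -0.2517 over members at or above the reference level and -0.0352 to 0.025 with 1 tumor left out. Apart from the settings' own construction, the causes were not tested. Tumors with the same replicate number correlated at -0.18 to 0.143 in their deviations from the group means (10 pairs), and those with other numbers at -0.138 to 0.17. Such correlations over all probe sets cannot show whether tumors with the same number shared a day or batch, which the labels do not give. With the replicate block 0 probe sets passed in the comparison of both shPC groups, and Adam9 differed by 0.0048. Dim probe sets limit what can be said of the 41 members below the reference level, and groups of 3 or 4 tumors limit the rest.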
